A study of Mus musculus with 8 samples.

Results

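The transcripts of 10 transcription factors of the alveolar and luminal mammary epithelium were followed in RNA-seq of mammary epithelium at pregnancy day 14.5. The genes were chosen by name, as the rows of the deposited expression table for Elf5, Elf3, Ehf, Gata3, Nfib, Nfia, Nfix, Cebpa, Cebpb and Cebpd, and all 10 were found among the 55933 genes of the table. The 8 libraries come from 4 control mice, which the labels call WT, and 4 conditional knockout (cKO) mice, with 1 library per mouse. The knockouts carry K14-rtTA, teto-Cre and Bmpr1a fl/fl, all mice are C57BL/6 females, and the controls are littermates whose exact genotype and doxycycline treatment are not given in the sources used here. The keratin 14 promoter drives the doxycycline-dependent activator, so that Cre is switched on in K14+ myoepithelial cells, the outer contractile layer of the gland, while the RNA came from an unsorted preparation that held luminal and myoepithelial cells alike.

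Alveolar cells are the milk-producing cells that arise from luminal progenitors during pregnancy. Prolactin acts through its receptor, JAK2 and STAT5 on these cells, and ELF5, an ETS-family factor, is known as a master regulator of their differentiation. ELF3 and EHF belong to the same epithelium-specific branch of the ETS family. GATA3 maintains the luminal lineage, NFIB, NFIA and NFIX belong to the nuclear factor I family, which takes part in milk gene regulation, and the C/EBP factors act in luminal lineage commitment (CEBPB) and in the response to cytokines at involution (CEBPD).

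Libraries held 16123108 to 19896988 reads on genes, and the 10 genes were covered by 388 reads (the lowest library of Nfia) to 22432 reads (the highest library of Cebpd). Levels are FPKM, which are per length and so can be set side by side between genes. Differences are cKO minus control on the log2(FPKM + 1) scale from limma, with Benjamini-Hochberg adjustment over the 15143 genes with a mean of at least 0.5 FPKM. The targeted gene does not check the labels: Bmpr1a, summed over its whole length, had a control mean of 10.1 ± 1.28 FPKM and a cKO mean of 11.2 ± 1.01 (SD over 4 libraries, exact two-sided permutation p = 0.257). Groups are therefore named as labelled, and every direction below is that of the libraries labelled cKO. Luminal identity was plain in every library, with a summed level of 8 luminal markers (keratins 7, 8, 18 and 19, Epcam, Cldn3, Cldn7 and Cdh1) of 5183 to 6523 FPKM in control and 5041 to 6537 in cKO.

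Of the 10 genes, 1 had groups that did not overlap. This was Elf5, higher in every library labelled cKO than in every control library, at 1.81 times the control mean, a separation also seen in 6.10% of all genes tested (every cKO library lower: 4.60%). Ehf and Nfib were higher by smaller amounts with overlapping groups, and Elf3, Gata3, Nfia, Nfix and the 3 C/EBP genes had differences whose intervals spanned 0 in this fit, which holds no term for the split between replicates described further on. By the adjusted test 0 of the 10 genes passed, against 0.892% of all genes tested (135 genes). At an unadjusted limma p under 0.05, 3 of the 10 were higher (8.85% of all genes tested were) and 0 were lower (7.53% of all genes). The median difference of the 10 was 0.0021, next to 0.00072 over all genes tested, and the signs were split, with 5 positive and 5 negative. In a bulk preparation a change in the number of cells of a type and a change in RNA per cell cannot be told apart, and this holds for every value below.

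**Figure D1:**
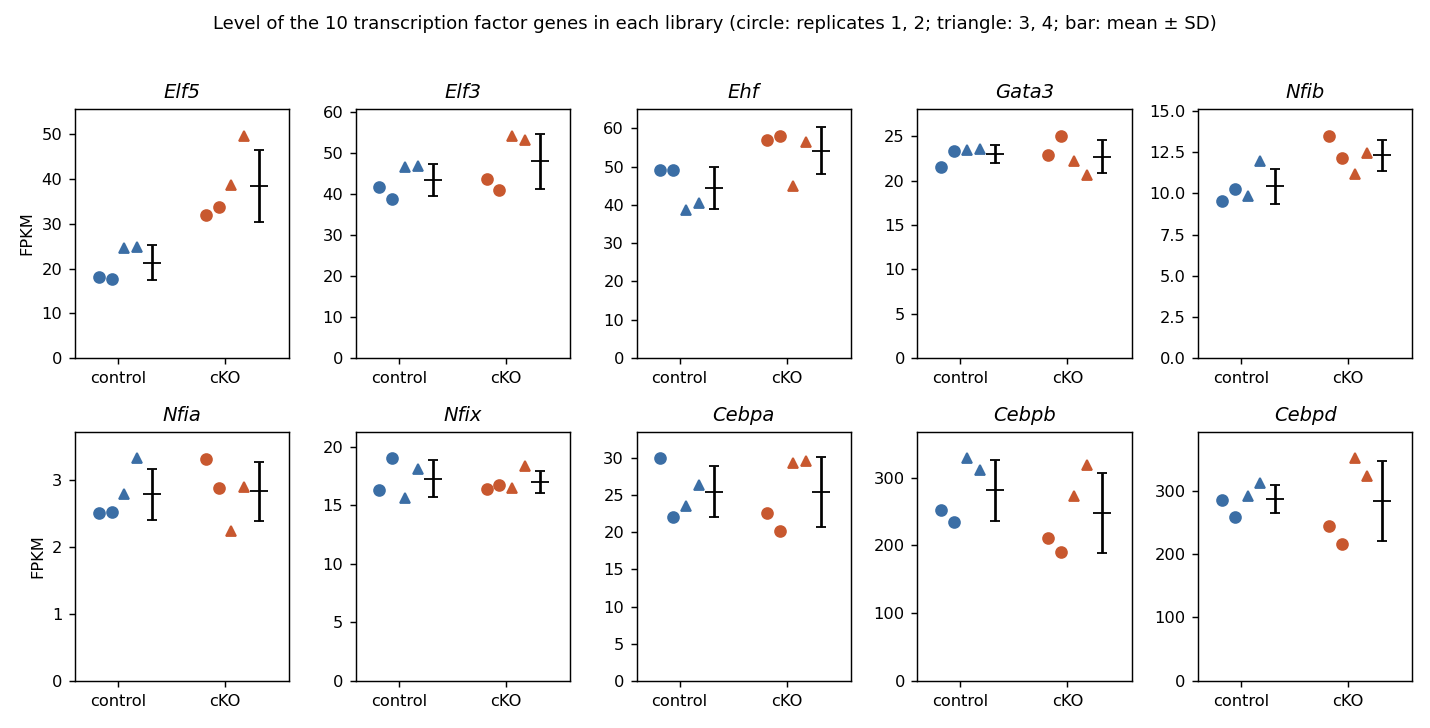
FPKM (vertical axes, from 0) of each gene in each library, with control in blue and cKO in orange, circles for replicates 1 and 2, triangles for replicates 3 and 4, and the mean ± SD beside each group. Elf5 is the 1 panel in which the groups do not overlap, with control between 17.8 and 24.7 and cKO between 31.9 and 49.8.

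The upstream sequence of Elf5 is shown because its groups did not overlap, and that of Cebpb because, as given further on, its levels ran with those of Elf5 within the groups while its cKO mean was not higher. Both are RefSeq promoter windows on GRCm38, cut to the bases that lie outside annotated exons, on the plus strand. The Elf5 stretch is chr2:103423818-103424061, ending just before the downstream of 2 RefSeq starts (103424068), with the C/EBP match TTGCTCAA in capitals 241 bases before that start. The Cebpb stretch is chr2:167688665-167688914, with the ETS core GGAAG in capitals 197 bases before its start.
Elf5: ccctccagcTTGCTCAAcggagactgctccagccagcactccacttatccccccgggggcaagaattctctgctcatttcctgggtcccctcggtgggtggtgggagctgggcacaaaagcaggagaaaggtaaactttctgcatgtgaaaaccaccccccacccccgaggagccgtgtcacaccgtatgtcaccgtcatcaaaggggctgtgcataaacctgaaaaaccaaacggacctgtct
Cebpb: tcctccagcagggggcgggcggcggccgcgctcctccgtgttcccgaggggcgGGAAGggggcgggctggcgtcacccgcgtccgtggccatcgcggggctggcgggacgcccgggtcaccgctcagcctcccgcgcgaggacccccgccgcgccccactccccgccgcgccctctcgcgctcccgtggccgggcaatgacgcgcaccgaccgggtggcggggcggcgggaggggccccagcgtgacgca
The Cebpb stretch is 81.6% G and C, and the Elf5 stretch 57.0%.

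RefSeq windows were found for 7 of the 10 genes (Elf5, Elf3, Gata3, Nfia, Nfix, Cebpa and Cebpb), in 11 windows of 250 bases before a start. On both strands, the C/EBP letters TTGCNNAA were found in 2 of these windows, both of Elf5, and in 9.56% of 32851 windows of all genes. For a STAT site, TTCNNNGAA was found in 1 window, of Nfix, and in 7.02% of all windows. The ETS core GGAAG was found in 7 windows of 4 of the genes, and in 64.1% of all windows. AGATAA, the letters of a GATA site, was found in 0 of the 11 windows and in 9.99% of all. TTGGC, the core of an NFI site, was in 4 windows of 3 of the genes and in 41.5% of all. A TATAAA was found 30 bases before the start of Cebpa alone, and in 12.4% of all windows. In the Nfix window the STAT letters share bases with an ETS core. These matches describe letters in the sequence and are not evidence of binding.

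Elf5 (ENSMUSG00000027186, chr2:103411688-103450989, plus strand) stood at 18.1, 17.8, 24.7 and 24.7 FPKM in control replicates 1 to 4. In cKO it stood at 31.9, 33.7, 38.8 and 49.8. The lowest cKO library was above the highest control library. The means were 21.3 ± 3.91 and 38.5 ± 8.02 FPKM (SD, n = 4 each), on 1810 to 5431 reads per library. The difference was 0.82 ± 0.16 (SE) with a 95% interval of 0.45 to 1.19, an unadjusted limma p of 0.000686 and an adjusted p of 0.0591, which misses the threshold. The exact two-sided permutation test gave p = 0.0286, the smallest that 4 against 4 allow. Over 21 alternative ways of processing, the Elf5 difference ranged from 0.69 to 0.90, its unadjusted p was under 0.05 in all 21 and its adjusted p (limma) ranged from 0.0019 to 0.146, under 0.05 in 8. Among the alternatives, limma-voom on the read counts recovered from the FPKM gave an adjusted p of 0.0239, and the limma fit gave 0.0065 with replicates 1 and 2 against 3 and 4 as a block, a split described further on. The call therefore depends on the settings. The direction held in all 21, but many of these could not have reversed it. Filters, the trend setting and the limma blocks leave the difference itself unchanged. With groups that do not overlap, leaving out a library cannot reverse it.

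Elf5 was also compared with all factors, using the family annotation in the table itself. Of 1603 genes annotated as transcription factors, 915 were tested, of which 57 (6.23%) were higher and 62 (6.78%) lower at an unadjusted p under 0.05. In the fit reported, Elf5 had the largest difference of the 915, in either direction, and the 5th smallest p. It was first by size of increase in 14 of the 21 alternatives and between second and 5th in the others. By the same order Ehf was 35th, Nfib 61st, Elf3 137th and Cebpb 816th. In the fit reported, 2 of the 915 factors passed the adjusted test, 7 did with protein-coding genes alone, and 0 did without any 1 of the control libraries, cKO replicate 2 or cKO replicate 4. The 2 are Xbp1, a regulator of the secretory pathway (103.5 ± 3.20 to 144.4 ± 2.83 FPKM, difference 0.48 ± 0.06, adjusted p = 0.0204), and Bhlha15, which encodes MIST1, a factor of secretory cells (1.05 ± 0.174 to 2.53 ± 0.510 FPKM, difference 0.77 ± 0.12, adjusted p = 0.0313, named after its value was seen).

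**Figure D2:**
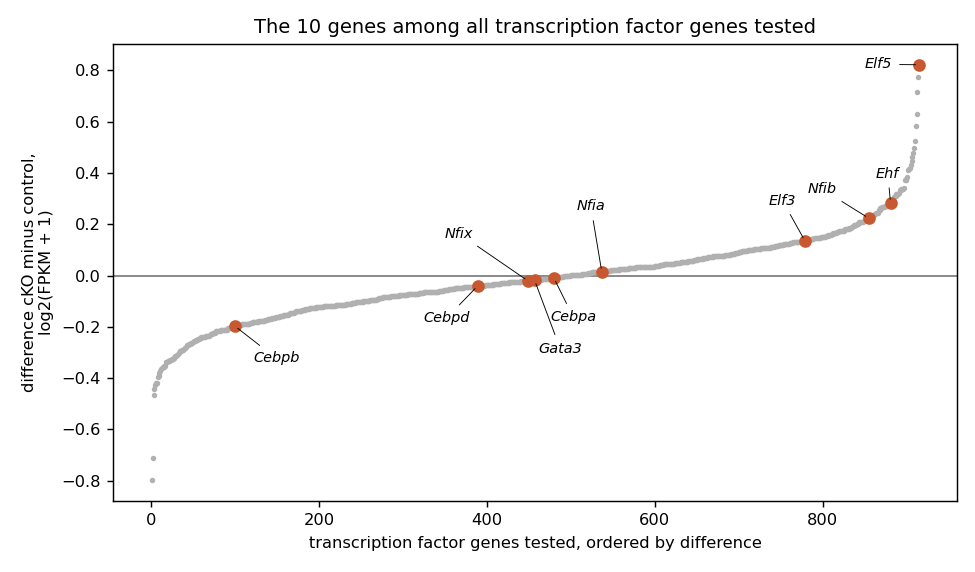
Difference cKO minus control on the log2(FPKM + 1) scale (vertical axis) for the 915 transcription factor genes tested, ordered from lowest to highest (horizontal axis), with the 10 genes of interest as labelled orange points. Elf5 lies at the upper end at 0.82, Ehf and Nfib on the upper shoulder and Cebpb on the lower one.

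Ehf (ENSMUSG00000012350, chr2:103263433-103303278, minus strand), the ETS factor next to Elf5 in the genome, stood at 49.1, 49.1, 38.7 and 40.5 FPKM in control. In cKO it stood at 57.0, 58.1, 45.0 and 56.5. The groups overlapped through a single library, cKO replicate 3, which lay below control replicates 1 and 2. The means were 44.4 ± 5.52 and 54.2 ± 6.15 FPKM (SD, n = 4 each), with a difference of 0.28 ± 0.11 (95% interval 0.03 to 0.54, unadjusted limma p = 0.0323, adjusted p = 0.253, exact permutation p = 0.0857). With a library left out, its unadjusted limma p ranged from 0.00609 to 0.0880 and was under 0.05 in 3 of 8 fits. With every library scaled to the same sum of FPKM, the unadjusted limma p of Ehf was 0.154.

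Elf3 (ENSMUSG00000003051, chr1:135253575-135258568, minus strand), the third of these ETS factors, stood at 41.6, 38.7, 46.5 and 46.7 FPKM in control. In cKO it stood at 43.6, 41.0, 54.2 and 53.1. The lower 2 libraries of each group were replicates 1 and 2, and the groups overlapped. The difference was 0.14 ± 0.11 (95% interval -0.11 to 0.38, limma adjusted p = 0.587).

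Of the 16 other ETS genes listed for comparison, 1 was higher and 3 were lower at an unadjusted p under 0.05, with a median difference of -0.08, and 0 passed the adjusted test of limma. Spdef, an ETS factor of secretory epithelia, had 3.95 ± 0.693 FPKM in control and 6.49 ± 1.48 in cKO (difference 0.58 ± 0.16, adjusted p = 0.132). The PEA3-type factors Etv4 and Etv5 had differences of -0.33 ± 0.11 and -0.20 ± 0.08 (adjusted p = 0.174 and 0.251), and Ets1, which is also made by lymphoid and endothelial cells, one of -0.24 ± 0.09 (adjusted p = 0.242). The table annotates 4 further tested ETS genes that were not on the list, of which 1 was at an unadjusted p under 0.05. This was Spib, a factor of lymphoid cells (1.43 ± 1.24 and 0.352 ± 0.0917 FPKM, difference -0.71 ± 0.31, limma adjusted p = 0.295, named after its value was seen). Of the 16, 12 had a negative sign, whereas the sign was positive for Elf5, Ehf and Elf3.

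Gata3 (ENSMUSG00000015619, chr2:9857078-9890034, minus strand) was nearly level. It stood at 21.5, 23.3, 23.5 and 23.6 FPKM in control and at 22.8, 25.1, 22.2 and 20.7 in cKO, with means of 23.0 ± 0.982 and 22.7 ± 1.82. The difference was -0.02 ± 0.07 with a 95% interval of -0.18 to 0.14, so that a change of the size of Elf5 lies outside the interval. Of the 6 other GATA-type genes listed, 2 had enough signal to test. Trps1 had 6.01 ± 0.994 and 7.41 ± 0.760 FPKM (difference 0.27 ± 0.11, limma adjusted p = 0.280), and Gata2 0.777 ± 0.104 and 0.833 ± 0.157 (difference 0.04 ± 0.09, limma adjusted p = 0.861).

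Nfib (ENSMUSG00000008575, chr4:82290173-82705750, minus strand) stood at 9.55, 10.3, 9.86 and 12.0 FPKM in control. In cKO it stood at 13.5, 12.1, 11.2 and 12.4. Overlap came from cKO replicate 3 lying below control replicate 4. The difference was 0.22 ± 0.08 (95% interval 0.03 to 0.41, unadjusted limma p = 0.0263, adjusted p = 0.233, exact permutation p = 0.0571). Its unadjusted limma p was 0.113 with every library scaled to the same sum of FPKM and 0.0782 with library totals, and with a library left out it ranged from 0.00606 to 0.0730, under 0.05 in 3 of 8 fits. Nfix (ENSMUSG00000001911, chr8:84699876-84800344, minus strand) ranged from 15.6 to 19.0 FPKM in control and 16.4 to 18.4 in cKO, a difference of -0.02 ± 0.08. Nfia (ENSMUSG00000028565, chr4:97772734-98118874, plus strand) was the lowest of the 10 genes, at 2.50 to 3.32 FPKM in control and 2.24 to 3.31 in cKO, a difference of 0.01 ± 0.11. The remaining family member, Nfic, had 7.96 ± 0.914 and 9.37 ± 0.395 FPKM (difference 0.22 ± 0.08, limma adjusted p = 0.230). Within this family the values of Nfib and Nfic were thus alike in size, and neither passed the adjusted test.

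Cebpb (ENSMUSG00000056501, chr2:167688915-167690418, plus strand) stood at 252, 235, 328 and 311 FPKM in control. In cKO it stood at 211, 190, 272 and 319. Replicates 3 and 4 were the higher libraries of both groups, and the groups overlapped, with means of 281 ± 45.0 and 248 ± 58.8 and a difference of -0.20 ± 0.18 (95% interval -0.60 to 0.21, limma adjusted p = 0.637). Cebpd (ENSMUSG00000071637, chr16:15887286-15891031, plus strand) stood at 286, 258, 292 and 311 FPKM in control and at 244, 216, 351 and 322 in cKO. Its cKO libraries spread wider than the control libraries on both sides, with an SD of 63.6 against 22.0 and a difference of -0.04 ± 0.15. Cebpa (ENSMUSG00000034957, chr7:35119293-35121928, plus strand), a factor also known from adipocytes, stood at 29.9, 22.0, 23.5 and 26.3 FPKM in control and at 22.6, 20.2, 29.3 and 29.5 in cKO, a difference of -0.01 ± 0.14.

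Of the 3 other C/EBP genes, 2 were tested. Ddit3, the stress-induced member known as CHOP, had 13.0 ± 1.28 FPKM in control and 10.4 ± 0.967 in cKO (difference -0.31 ± 0.09, limma adjusted p = 0.147). Cebpg, a partner of other C/EBP and ATF factors, had 35.4 ± 1.86 and 38.9 ± 3.16 (difference 0.13 ± 0.07, limma adjusted p = 0.423). The signs of these 2 genes were opposite.

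**Figure D3:**
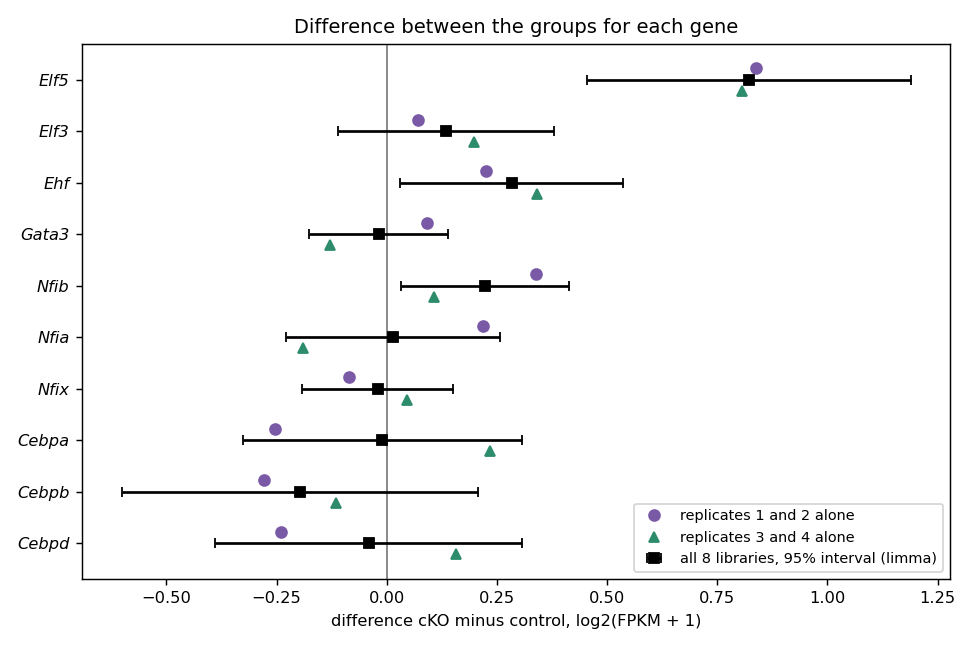
Difference cKO minus control on the log2(FPKM + 1) scale (horizontal axis) for each gene, with the limma estimate from all 8 libraries and its 95% interval as squares and bars, and the differences found in replicates 1 and 2 alone (circles) or 3 and 4 alone (triangles). The Elf5 interval, 0.45 to 1.19, lies apart from 0 and its circle and triangle nearly coincide, whereas for Cebpa, Cebpd, Nfia, Nfix and Gata3 the circle and the triangle lie on opposite sides of 0.

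Libraries of replicates 1 and 2 differed from those of replicates 3 and 4 in several members, a split that was seen in these data, is not explained by the labels, and was cleaner in control than in cKO. Pairs of control libraries, compared at genes with at least 20 reads in the pair, had a chi-square per degree of freedom of 8.92 and 11.8 within the sets and 17.2 to 24.2 across them. In cKO the pairs within sets gave 12.2 and 21.0, and those across 14.6 (replicates 2 and 3) to 30.7, so that the ranges overlap. Elf5 was higher in replicates 3 and 4 by 0.44 in control and 0.41 in cKO, and the groups differed by 0.84 among replicates 1 and 2 and by 0.81 among replicates 3 and 4. With this split as a block in the limma fit, Elf5 was the only one of the 10 genes to pass (adjusted p = 0.0065), against 2.92% of all genes tested. At an unadjusted p under 0.05 this limma fit had 4 of the 10 higher (Elf5, Ehf, Nfib and Elf3, with 0.0265 for Elf3) against 11.9% of all genes, and 1 lower (Cebpb, 0.028) against 9.47%. For Cebpb the split was 0.39 in control and 0.55 in cKO, larger than its difference between the groups, which was -0.28 and -0.12 within the sets. Ehf went the other way, with replicates 3 and 4 minus 1 and 2 at -0.30 in control and -0.19 in cKO, and with differences between the groups of 0.22 and 0.34. For Nfib the groups differed by 0.34 in the first set (replicates 1 and 2) and 0.11 in the other, and for Elf3 by 0.07 and 0.20. Of the 10 genes, 5 kept one sign in both sets (the 3 ETS genes, Nfib and Cebpb) and 5 did not. Cebpa had -0.25 in replicates 1 and 2 and 0.23 in replicates 3 and 4, and Cebpd -0.24 and 0.16, and these differences between the sets were not tested.

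By level the order in control was Cebpd, Cebpb, Ehf, Elf3, Cebpa, Gata3, Elf5, Nfix, Nfib and Nfia. Neighbours whose libraries did not overlap were Cebpb and Ehf, Elf3 and Cebpa, Nfix and Nfib, and Nfib and Nfia, and the other neighbours overlapped. In cKO the order was the same except that Elf5 moved from the 7th to the 5th place, with no overlap between its libraries and those of Cebpa below it. In single libraries Elf5 took the 5th to the 8th place in control and the 5th in all 4 cKO libraries. Among the 915 factors tested, Cebpd and Cebpb had the third and the fourth highest mean FPKM, Ehf the 39th, Elf3 the 45th and Elf5 the 73rd.

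The genes whose log2(FPKM + 1) ran most closely with that of Elf5 over the 8 libraries, among 11066 protein-coding genes with a mean of at least 1 FPKM, were the casein genes Csn3 (Pearson r = 0.993) and Csn1s1 (r = 0.992). Csn3 stood at 438, 484, 602 and 629 FPKM in control and at 853, 913, 995 and 1448 in cKO. Its libraries had nearly the same order as those of Elf5. These correlations rest on 8 points that share the group difference and the split between replicates, and are given as a description. With the group means removed, the nearest genes to Elf5 were Cldn3, a tight junction gene (r = 0.991), and Tssc4 (r = 0.990). For the other members the 2 nearest genes over all libraries were Mpc2 and Nudt18 (Elf3), Zfc3h1 and Secisbp2l (Ehf), Pum3 and Dnajc10 (Gata3), Cops2 and Wdr41 (Nfib), Laptm4a and Pnp (Nfia), Itfg1 and Cfap300 (Nfix), Pgap3 and Taf5 (Cebpa), Bag6 and Fau (Cebpb), and E130309D02Rik and CAAA01147332.1 (Cebpd), with r from 0.902 to 0.993. With group means removed they were Ssr4 and AI837181 (Elf3), Rere and Usp32 (Ehf), Yipf4 and Ptcd2 (Gata3), P3h1 and Mmp23 (Nfib), Penk and Emp3 (Nfia), Add1 and Itfg1 (Nfix), Pgap3 and Safb (Cebpa), Rps18 and Bag6 (Cebpb), and Lpo and Ciao2b (Cebpd).

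**Figure D4:**
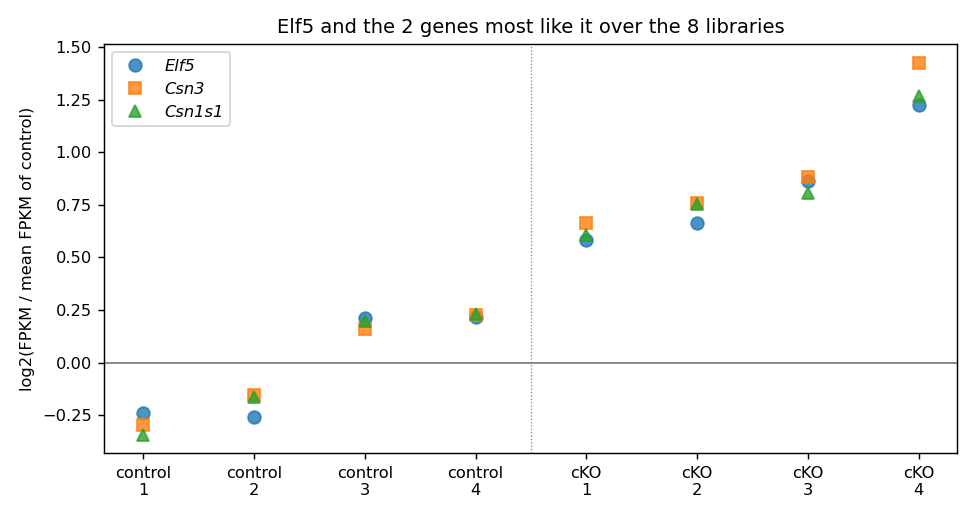
Level of Elf5, Csn3 and Csn1s1 in each of the 8 libraries (horizontal axis), as log2 of FPKM over the control mean of the same gene (vertical axis). The 3 genes lie close together in every library, lowest in control replicates 1 and 2 and highest in cKO replicate 4.

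Among the 10 genes themselves, with group means removed, Elf3 ran with Cebpb (r = 0.95) and Cebpd (r = 0.95), Elf5 with Cebpb (r = 0.94) and Nfib with Nfia (r = 0.91). Gata3 and Cebpa ran opposite (r = -0.86). Over the levels as they are, Elf5 and Cebpb had r = 0.11, with Elf5 higher and Cebpb lower in the cKO mean. All of these are over 8 libraries that share the split between replicates.

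Milk product genes, downstream of these factors, gave the comparison for Elf5. Of 12 listed, 11 were higher at an unadjusted p under 0.05 and 5 passed the adjusted test, with a median difference of 0.91. Muc15 had 73.1 ± 3.03 FPKM in control and 142 ± 27.3 in cKO, Glycam1 423 ± 197 and 1906 ± 645, Wap 38.5 ± 18.1 and 186 ± 91.7, and Csn1s2a 2041 ± 451 and 5581 ± 1710, with limma adjusted p of 0.0266, 0.0339, 0.034 and 0.0377. The fifth to pass was Csn2, with an adjusted p of 0.0461. The summed level of the 12 genes ranged from 4557 to 6798 FPKM in control and from 10804 to 19539 in cKO.

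Of 13 genes listed for the prolactin pathway, 2 were higher and 1 lower at an unadjusted p under 0.05. Their median difference was 0.04, and 0 passed the adjusted test of limma. The list is not confined to genes upstream of Elf5. It also holds Tnfsf11 and Src, which the paper places downstream of the prolactin receptor and STAT5, as it does Elf5. Socs1, an inhibitor of JAK signalling, stood at 10.9 ± 1.15 FPKM in control and 7.70 ± 1.41 in cKO with no overlap (difference -0.47 ± 0.12, adjusted p = 0.116). Socs3, another inhibitor, stood at 86.7 ± 3.21 and 98.5 ± 7.82, also with no overlap (difference 0.18 ± 0.07, adjusted p = 0.254). Tnfrsf11a, the receptor for RANKL, had 4.55 ± 0.451 and 5.49 ± 0.665 FPKM (limma adjusted p = 0.282) and Stat5b 13.9 ± 0.833 and 15.3 ± 0.809 (limma adjusted p = 0.343). The transcripts of Prlr, Jak2 and Stat5a, named for their place in the pathway, differed by 0.07 ± 0.09, 0.001 ± 0.12 and 0.04 ± 0.09.

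Of 23 other luminal factors and regulators, 3 were higher and 1 lower at an unadjusted p under 0.05, with a median difference of 0.01. Xbp1, given above, rose. Cited1, a co-regulator of oestrogen receptor found in hormone-sensing luminal cells, fell from 10.1 ± 1.63 to 4.55 ± 0.987 FPKM (difference -1.01 ± 0.15, limma adjusted p = 0.0268). The other two at an unadjusted p under 0.05 were Grhl1 (5.77 ± 0.435 and 7.29 ± 1.23 FPKM, limma adjusted p = 0.229) and Tfap2c (26.6 ± 2.29 and 31.2 ± 3.62, limma adjusted p = 0.291).

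Elf5 and Ehf are neighbours, with 108409 bases between them, so the genes around them were examined. Within 500000 bases of either gene 10 genes were tested. Of the 8 others, 3 had an unadjusted limma p under 0.05 (16.4% of all genes tested did), and 0 passed the adjusted test. BC016548, between Ehf and Elf5, ranged from 0.588 to 0.963 FPKM in control and from 0.909 to 2.06 in cKO (difference 0.46 ± 0.15, adjusted p = 0.173). Cat, catalase, had a difference of 0.15 ± 0.07 and Cd44, a hyaluronan receptor, one of -0.28 ± 0.09. Nat10, an RNA acetyltransferase, was lower in every cKO library, as were 4.60% of all genes tested. It stood at 6.18 to 6.64 FPKM in control and 5.95 to 6.16 in cKO (difference -0.09 ± 0.05, limma adjusted p = 0.444). The groups of Apip, Pdhx, Abtb2 and Caprin1 overlapped, with differences from -0.06 to 0.16.

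**Figure D5:**
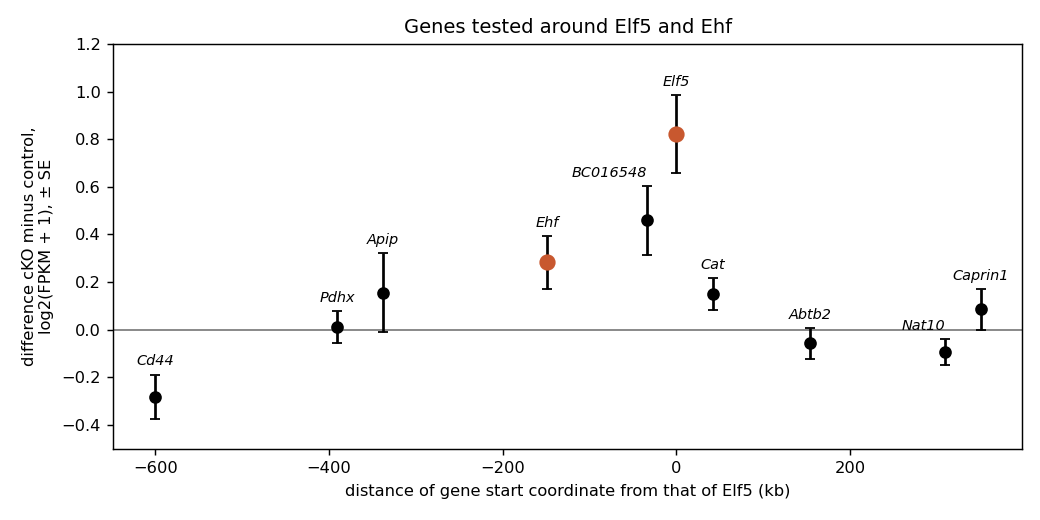
Difference cKO minus control on the log2(FPKM + 1) scale with its SE (vertical axis) for the 10 genes tested around Elf5 and Ehf, by the distance of their lowest coordinate from that of Elf5 in kb (horizontal axis), with Elf5 and Ehf in orange. Elf5 is highest at 0.82, BC016548 and Ehf follow at 0.46 and 0.28, and Cd44 is lowest at -0.28.

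Markers of other cells were measured beside these values. Of 8 luminal markers 0 passed at an unadjusted limma p under 0.05 and 0 after adjustment. The mean of that list itself differed by -0.06, with 6 of its 8 markers negative, which raises every value set against it. It also holds Cldn3, the gene nearest to Elf5 with group means removed. Set against this mean in each library, Elf5 differed by 0.89 and Elf3, which overlapped without this step, by 0.20. Both had no overlap between the groups, and 5.01% of all genes tested were higher without overlap on this scale. The other 8 genes overlapped, and their differences ran from -0.13 to 0.35. Of 6 luminal progenitor markers 3 were lower at an unadjusted limma p under 0.05 (summed 768 to 914 FPKM in control, 757 to 819 in cKO). Tspan8 passed the adjusted test of limma (11.2 ± 0.771 to 6.01 ± 1.55 FPKM, adjusted p = 0.0461). Of 8 hormone-sensing markers 1, Cited1, was lower (41.4 to 59.7 FPKM summed in control, 32.6 to 40.5 in cKO). Of 9 myoepithelial markers 1 was higher and 2 lower (1607 to 2188 and 1511 to 2081 FPKM).

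Adipocytes, macrophages and lymphocytes also express members such as Cebpa, Cebpb and Gata3. Of 8 adipocyte markers 5 were tested and 3 were higher (81.0 to 124 FPKM summed in control, 105 to 140 in cKO), Cidec past the adjusted test, while Plin1 and Lep stayed under 0.5 FPKM in every library. Of 7 macrophage markers 4 were lower (281 to 383 and 171 to 286 FPKM). Of 8 lymphocyte markers 6 were tested and 3 were lower, with a summed level of 3.51 to 29.3 FPKM in control and 1.92 to 3.46 in cKO. Fibroblast markers (6, none past p under 0.05) summed to 441 to 920 and 299 to 713 FPKM, and endothelial markers (5, 1 lower) to 97.8 to 114 and 75.3 to 103. Neutrophil markers (5, 1 higher and 1 lower of 3 tested) summed to 159 to 187 and 169 to 234 FPKM, with Ly6g and Mpo under 0.5 FPKM in every library. Of 10 immediate early genes, which cell dissociation can induce, 0 passed at an unadjusted limma p under 0.05 (996 to 1264 and 847 to 1504 FPKM). The part of these cells in the values of the 10 genes was not tested.

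Exons of several members overlap those of other genes, and strand-specific counting is not stated, so reads in the shared bases cannot be assigned. Cebpb shares 312 bases with Tmem189 on the opposite strand, which had 449 to 643 reads against 4718 to 8915 for Cebpb. Cebpd shares 562 bases with Spidr, which had 218 to 300 reads against 13356 to 22432. The other overlaps were with Gm26642 (Elf3), Gm13256 and 9230102O04Rik (Gata3), Gm45091 (Cebpa), G430095P16Rik and Lyl1 (Nfix) and E130114P18Rik (Nfia), which had at most 48 reads in any library. No exon of another gene overlapped those of Elf5, Ehf or Nfib.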

How the data were processed

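Mammary epithelium was digested out of the gland with collagenase and hyaluronidase and sequenced without sorting. Per the paper's methods, the authors made libraries with a NEBNext Ultra kit, mapped reads with Hisat2 to GRCm38 and tested with DESeq2. The submitters' processing notes list featureCounts 1.5.0-p3, StringTie 1.3.3b and the build mm9. GENCODE vM21 holds 55394 of the identifiers, with unchanged start and end for 99.68% of them and for all 10 genes described, so coordinates are GRCm38. The deposited FPKM of the authors, times gene length, were whole multiples of a step per library for 100% of values above 0 (tolerance 0.01 of a read), and that step includes a median-of-ratios size factor.

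A limma 3.58.1 model (R 4.3.3, trend, Benjamini-Hochberg, threshold 0.05) was fitted to log2(FPKM + 1) of genes with a mean of at least 0.5 FPKM. The scale understates changes of low genes. An exact two-sided permutation test was run on single genes too. Sequences are from RefSeq (GRCm38.p6). Python 3.11.15, pandas 2.3.3, scipy 1.17.1 and matplotlib 3.10.9 were used otherwise, and the limma step was checked on simulated data.

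The genes and lists were chosen with earlier results of these data known. Named are all 10 genes, of each list the genes passing the adjusted test or, where none or more than 4 did, the 4 with the smallest p, the 2 genes most like each member, and genes with overlapping exons. Further genes named are said to be so, or make up a count of 5 or fewer. Mice are separate, and p-values measure the spread between these 8 libraries. Alternatives were a pseudocount of 0.1, 4 other scalings, 2 other filters, no trend, protein-coding genes alone, limma-voom, blocks and each library left out.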

Additional observations from a re-analysis of the deposited data

Results flagged for a closer look

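Of 46 groups of 4 libraries examined (the 10 genes, marker sums, milk products and reads per library in each group), 5 held a library far from the other three by Dixon's test at the 95% level, where chance gives about 2.3. Ehf in cKO replicate 3 was 45.0 FPKM, with the other cKO libraries at 56.5 to 58.1. Gata3 in control replicate 1 was 21.5 FPKM against 23.3 to 23.6 in the other control libraries. Nfix in cKO replicate 4 was 18.4 FPKM against 16.4 to 16.7 in the other cKO libraries. The summed adipocyte markers in cKO replicate 1 were 105 FPKM against 138 to 140 in the other cKO libraries. Control replicate 4 held 18778823 reads on genes, more than the other control libraries.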

How the results depend on the processing

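In all 21 alternatives the Elf5 difference kept its sign, which many of them could not have reversed, and an unadjusted limma p under 0.05. Its limma adjusted p was 0.0305 with TPM, with or without milk products in the sum, 0.0420 with library totals, 0.0314 with protein-coding genes alone and 0.0239 with limma-voom, and 0.0712 to 0.146 with a library left out. Members past the adjusted test numbered 0 as reported, 1 under each of those 5 settings, and 0 under every left-out library. At an unadjusted p under 0.05 the count was 3 as reported, 1 with TPM, TPM without milk products or library totals, and 1 to 3 with a library left out (1 without control replicate 3, cKO replicate 1 or cKO replicate 4). The share of all genes at that p was 16.4%, then 16.1%, 15.5% and 17.5% under those 3 scalings, and 13.5% to 16.6% with a library left out. Genes called in all numbered 135 of 15143 as reported, 132 of 15162 with TPM and 131 of 15156 with TPM without milk products. They numbered 171 of 15171 with library totals, 266 of 12344 with protein-coding genes alone and 252 of 15143 with limma-voom. With no filter they numbered 10, and with a library left out 0 (without control replicate 4) to 78. Members with no overlap numbered 1 to 3 with a library left out, namely 2 without control replicate 4 and 3 without cKO replicate 3, beside 13.8% to 16.6% of all genes over the left-out libraries and 10.7% with all 8. No scaling moved the median of all genes by over 0.1, the farthest being TPM with -0.048. Elf3, Ehf, Nfib and Cebpb kept their sign in all 21 alternatives, and Gata3, Nfia, Nfix, Cebpa and Cebpd, all with an adjusted p over 0.6 throughout, had the other sign in 1 to 6. The cause of these changes was not tested, also where the setting itself removes genes or libraries.

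Whether replicate numbers pair the libraries is not given in the labels. Same-numbered libraries deviate together with correlations of 0.0797 to 0.137, over 0.1 in 3 of 4 pairs. Of the 8 libraries, 3 correlate best with their own number. The mean correlation between control and cKO libraries within the sets of replicates (1 and 2, or 3 and 4) was 0.12. Pairing by number and the split between the sets therefore cannot be told apart. With the replicate block, 1 member (Elf5, limma adjusted p = 0.0357) and 50 genes in all were called, and with limma-voom in addition 2 members (Elf5 and Ehf) and 680 genes. A block of replicates 1 and 2 against 3 and 4, a split seen in these data, called 1 member (Elf5, adjusted p = 0.0065) and 442 genes. Transcription factors past the adjusted test numbered 2, 20 and 13 in these blocked fits, in that order. Each of the 3 blocked fits put 5 members at an unadjusted p under 0.05, among them Elf3 and Cebpb, beside 20.6% of all genes with the replicate block, 22.4% with it in limma-voom and 21.3% with the block of sets.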
